A study of Mus musculus with 3 samples.

Results

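The genes described here carry the vagal signal into heart muscle cells: the muscarinic acetylcholine receptor gene Chrm2, the potassium channel subunit genes Kcnj3 and Kcnj5, the G protein subunit gene Gnai2, and the regulators Rgs6, Gnb5 and Rgs4. The 7 genes were chosen by name for their place in this pathway, with earlier results of these data known, and all 7 are among the 30415 gene symbols of the 3 count matrices. Their levels over all cells and their joint detection in single cells were part of that choice, so both are given as a description. The data are droplet single-cell RNA sequencing counts from hearts of NOD/SCID mice, a strain without functional T and B lymphocytes. The mice were given pembrolizumab (an antibody against PD-1), atezolizumab (an antibody against PD-L1) or an isotype control antibody on days 0 and 7, and hearts were taken on day 14. No age is stated for the mice. Each group was 1 pool of 3 hearts in 1 library, so no replicate and no test between groups existed, and every interval below is a 95% interval for counting error only. The treatment tags conflict with the titles: the library titled PD1/PEM is tagged atezolizumab and the library titled PDL1/ATZ is tagged pembrolizumab. The libraries are called by their titles, and no value below is assigned to either antibody.

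Acetylcholine released by the vagus nerve binds the M2 receptor encoded by Chrm2, which is coupled to G proteins of the Gi class, whose alpha subunits include the product of Gnai2. The released beta-gamma subunits open the acetylcholine-gated potassium channel, a tetramer of the subunits encoded by Kcnj3 (GIRK1) and Kcnj5 (GIRK4), and the heart rate slows. RGS proteins speed GTP hydrolysis by the alpha subunit and so end the signal: the RGS6 protein does so in a complex with the G beta 5 protein encoded by Gnb5, and Rgs4 encodes a small RGS protein without that partner. The channel is known from the sinoatrial node and the atria, and is sparser in ventricular muscle.

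Transcripts were counted as UMIs (unique molecular identifiers, 1 for each captured molecule): 16677883 in 9510 isotype cells, 14766346 in 6388 PD1/PEM cells and 15144668 in 11599 PDL1/ATZ cells. Levels are given as CPM, counts of UMIs per 1000000 UMIs of the same cells. Median depth per cell was 1532.5, 2013.5 and 1010 UMIs in the same order, and the median share of mitochondrially encoded transcripts was 27.1%, 26.9% and 8.04%. Of the cell barcodes, 23 occurred in both isotype and PD1/PEM, and 0 of PDL1/ATZ occurred elsewhere. Between isotype and PDL1/ATZ, 161 gene symbols had at least 500 UMIs in one library and 0 in the other, and these were left out of the counts over all genes. These libraries may have been counted with different annotations, and the part of that in single-gene ratios was not tested. The 3 libraries also fell largely into different clusters, as given below, so a comparison with PDL1/ATZ in particular sets 2 differently composed libraries side by side. None of the 8 cardiomyocyte markers was at 0 in any library, and they summed to 30706, 22622 and 11123 CPM. Markers this abundant could hardly be at 0 at this depth. The sums go with the tissue label but do not tell which cells are cardiomyocytes.

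Chrm2, Kcnj3 and Rgs6 had the same order of levels among the libraries over all cells, and the promoters of these 3 genes are shown as the 250 bases before the RefSeq transcription start, on the strand of the gene, build GRCm38.p6, for Chrm2 at chr6:36387834-36388083, Kcnj3 at chr2:55435720-55435969 and Rgs6 at chr12:82617249-82617498, all on the plus strand. Capitals mark matches on either strand to a GATA motif (AGATAA, the same letters ending in G, or either with T first), a T-box motif (AGGTGT) or a TATA box (TATAAA).
Chrm2: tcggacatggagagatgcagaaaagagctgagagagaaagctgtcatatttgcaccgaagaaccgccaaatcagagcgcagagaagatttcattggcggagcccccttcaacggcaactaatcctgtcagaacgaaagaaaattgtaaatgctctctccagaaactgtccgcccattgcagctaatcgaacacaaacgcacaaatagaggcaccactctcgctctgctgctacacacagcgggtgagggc
Kcnj3: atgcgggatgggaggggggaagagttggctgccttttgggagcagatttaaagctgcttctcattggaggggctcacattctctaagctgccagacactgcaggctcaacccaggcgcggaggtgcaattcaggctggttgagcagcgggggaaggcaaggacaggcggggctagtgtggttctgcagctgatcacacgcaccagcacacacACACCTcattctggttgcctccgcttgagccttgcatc
Rgs6: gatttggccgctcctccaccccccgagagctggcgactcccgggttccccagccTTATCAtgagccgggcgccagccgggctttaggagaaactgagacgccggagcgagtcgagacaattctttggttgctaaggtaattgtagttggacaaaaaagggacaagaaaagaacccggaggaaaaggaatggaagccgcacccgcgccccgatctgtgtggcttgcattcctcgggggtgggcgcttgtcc
The Kcnj3 window held 1 T-box match, read on the minus strand, the Rgs6 window held 1 GATA match, also on the minus strand, and the Chrm2 window held none of these letters. No marked match overlapped another. Of all 32851 mouse promoters of the same length, 11.8% held the T-box letters, 26.5% a GATA motif and 12.4% the TATA box. A match is a description of the letters, and the 3 windows shared none of these motifs. Of the 7 members, 6 had an entry in the promoter table; Gnai2 is named only. In the GENCODE M21 annotation of GRCm38 the genes of the 3 promoters are long: Chrm2 spans 140 kb of chromosome 6, Kcnj3 162 kb of chromosome 2 and Rgs6 574 kb of chromosome 12, where the RefSeq start used for the promoter lies within the GENCODE span. Kcnj5 spans 29.6 kb, Gnai2 21.2 kb and Gnb5 39.6 kb of chromosome 9, and Rgs4 6.17 kb of chromosome 1.

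Over all deposited cells, Chrm2 was measured at 509 CPM in the isotype library (497.8 to 520), 761 in PD1/PEM (747 to 776) and 227 in PDL1/ATZ (219 to 235). The receptor gene was thus highest in PD1/PEM and lowest in PDL1/ATZ, with no overlap of the counting intervals. Kcnj3, which encodes the GIRK1 subunit, had the same order, with 157 CPM in isotype, 286 in PD1/PEM and 84.7 in PDL1/ATZ. Kcnj5, which encodes its partner GIRK4, did not share it: 20.8 in isotype and 20.9 in PD1/PEM, and 11.8 in PDL1/ATZ. Only 347, 308 and 179 UMIs lay behind these Kcnj5 levels.

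Among the regulators, Rgs6 was measured at 227 CPM in isotype, 303 in PD1/PEM and 157 in PDL1/ATZ, the order of Chrm2 and Kcnj3. Gnb5, whose product binds RGS6, was low throughout, at 11.9 (10.3 to 13.7), 11.4 (9.78 to 13.3) and 14.5 (12.7 to 16.6), and its 3 intervals overlapped. Rgs4 was measured at 34.2, 39.8 and 45.5, with overlapping intervals for neighbours in that order. Gnai2 was measured at 277, 286 and 324, with overlapping intervals for isotype and PD1/PEM.

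**Figure D1:**
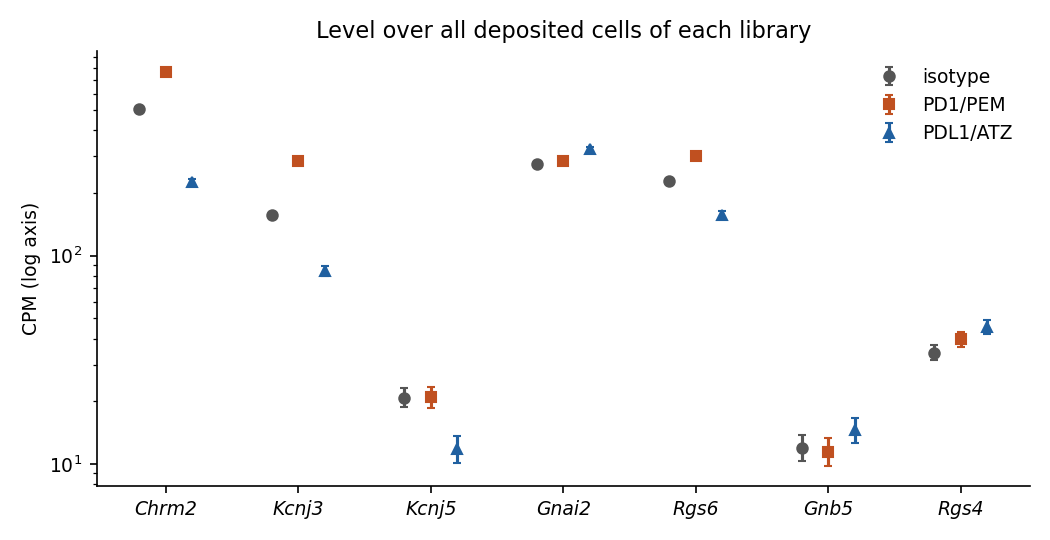
CPM over all deposited cells (log axis) of the 7 genes in the 3 libraries; points are single libraries and bars exact Poisson 95% intervals, some smaller than the point. Chrm2, Kcnj3 and Rgs6 were highest in PD1/PEM and lowest in PDL1/ATZ, while Gnb5 differed little.

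In PD1/PEM against isotype, a gene was called apart when its level differed at least 1.5-fold, its interval excluded no difference and it had at least 50 UMIs over both libraries. All 7 members could be tested, and Kcnj3 alone was called, 1.83-fold higher (1.74 to 1.92). Over all 14748 genes tested, 5% were called higher and 3.65% lower, and the median log2 ratio was 0.01. Since these levels were part of the choice of the members, nothing is read from the count. Chrm2 was 1.497-fold higher (1.46 to 1.54), just inside the limit, and so was not called. Rgs6 was 1.33-fold higher (1.27 to 1.39) and Rgs4 1.16-fold higher (1.03 to 1.31). Ratios for Gnai2 (1.03), Kcnj5 (1.0, 0.857 to 1.17) and Gnb5 (0.959, 0.777 to 1.18) had intervals that included no difference. The median log2 ratio of the 7 genes was 0.22.

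In PDL1/ATZ against isotype, 3 of the 7 members were called lower and none higher, against 6.19% called lower and 49.5% called higher of 16212 genes tested. Nothing is read from this count either, since these levels were part of the choice. Of the 8 cardiomyocyte markers, 7 were called lower in the same comparison, with a median log2 ratio of -1.21. Chrm2 was 2.24-fold lower (2.15 to 2.33), Kcnj3 1.85-fold lower (1.73 to 1.98) and Kcnj5 1.76-fold lower (1.47 to 2.12). Rgs6 was 1.45-fold lower (1.38 to 1.53) and was not called. The median gene was 0.59 higher on the log2 scale in PDL1/ATZ, so that relative to the median gene the log2 differences were -1.76 for Chrm2, -1.48 for Kcnj3, -1.41 for Kcnj5 and -1.13 for Rgs6. Gnai2, Rgs4 and Gnb5 were 1.17-fold, 1.33-fold and 1.22-fold higher in CPM, but all 3 turned lower with median-of-ratios scaling, with log2 ratios of -0.35, -0.17 and -0.30. That scaling also changed the balance over all genes from 8024 called higher and 1003 lower to 3067 and 2951, and omission of mitochondrially encoded genes from the total changed it to 4972 and 1807. Chrm2, Kcnj3, Kcnj5 and Rgs6 were lower under both. Without mitochondrially encoded genes in the total Rgs6 was called lower as well, and Gnai2 and Gnb5 had log2 ratios of -0.09 and -0.03. In these sums over all cells, fewer cells that express a gene and less RNA per cell cannot be told apart.

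**Figure D2:**
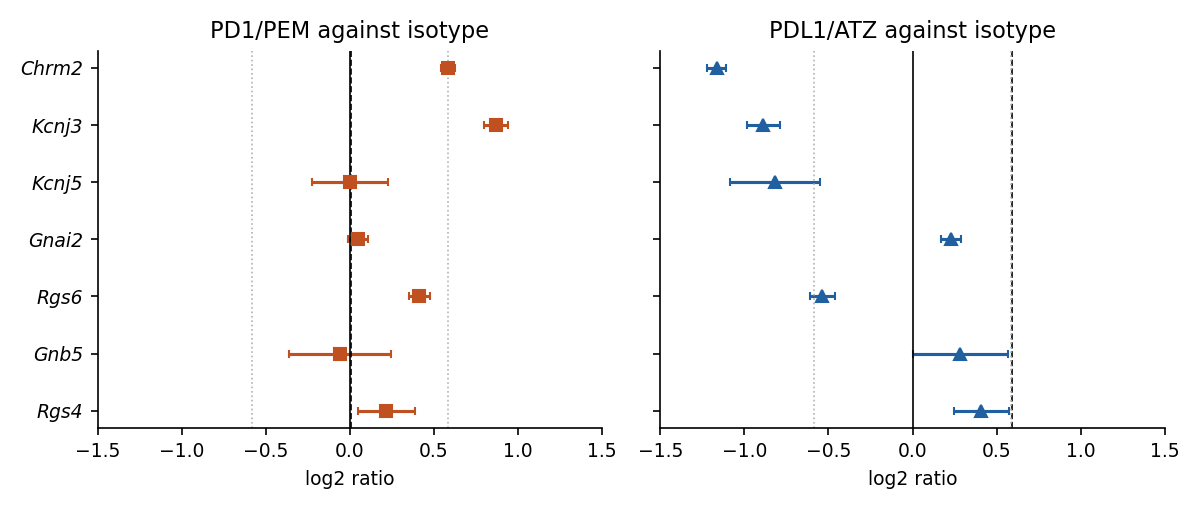
Log2 ratio of each gene in PD1/PEM (left) and PDL1/ATZ (right) against isotype, with exact 95% counting intervals; the solid line is no difference, the dashed line the median of all genes tested, and dotted lines the 1.5-fold limits. On the left Kcnj3 alone lies beyond a dotted line, and on the right Chrm2, Kcnj3 and Kcnj5 do.

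Shares of cells showed the same order for Chrm2, Kcnj3 and Rgs6. As deposited, 44.3%, 53.7% and 16.2% of the isotype, PD1/PEM and PDL1/ATZ cells held a Chrm2 UMI. After thinning of each cell to 700 UMIs, without the 483, 133 and 413 cells below that depth, the shares were 24.4% (23.6 to 25.3), 29.2% (28.1 to 30.4) and 10.4% (9.80 to 10.9). Thinned shares for Kcnj3 were 10.1%, 13.7% and 5.05%, against 21.7%, 32.7% and 7.92% as deposited. For Rgs6 they were 11.5%, 13.7% and 7.70%, against 23.8%, 30.8% and 12.8%. Kcnj5 was found in 1.34%, 1.20% and 0.840% of thinned cells and Gnb5 in 0.919%, 0.703% and 1.05%, so that neither gene could be followed in single cells at this depth.

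The cells were clustered jointly without the 7 genes, without the wider list of pathway genes and without mitochondrially encoded genes, so the members played no part in drawing the clusters. Of the 10 clusters, cluster 7 held the highest levels of Chrm2, Kcnj3 and Rgs6 in every library. It held 549 isotype, 499 PD1/PEM and 48 PDL1/ATZ cells, which were 5.77%, 7.81% and 0.414% of these libraries. Among its leading named genes were Fgf12, Tmem163, Ryr3, Rxfp1 and Pirt. It met 1 of 8 cardiomyocyte markers (Ryr2) and 2 of 10 atrial markers (Sbk2 and Mybphl), and no cell type reached the 3 markers needed for a name. A marker was met with at least 10 UMIs and a level at least 2-fold above the other cells.

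In cluster 7, Chrm2 was measured at 1777 CPM in isotype (1708 to 1847), 2754 in PD1/PEM (2678 to 2833) and 4733 in PDL1/ATZ (4373 to 5115). Kcnj3 was measured there at 365 (335 to 398), 1165 (1116 to 1217) and 1944 (1716 to 2194). Rgs6 was measured at 802, 1178 and 2589. The channel gene and its receptor and regulator were therefore lowest in isotype within this cluster, and PDL1/ATZ was highest, the reverse of its place over all cells. Cluster 7 was drawn without batch correction. Its cardiomyocyte markers summed to 37930, 33779 and 26271.5 CPM in isotype, PD1/PEM and PDL1/ATZ. Cells without an atrial marker besides Bmp10 (of the 6 used below) were 215 of 549, 130 of 499 and 22 of 48. Cluster 7 may thus be a different mixture of cells in each library, which was not tested. Per library, cluster 7 held 19.98%, 48.7% and 20.4% of all Kcnj3 UMIs, in 5.77%, 7.81% and 0.414% of the cells. Its cells were deeper than the library, with medians of 2502, 3404 and 2536.5 UMIs, so the share of cells understates its share of all UMIs. In CPM, its Kcnj3 level was 2.67-fold, 6.99-fold and 28.6-fold that of the other cells.

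Within cluster 7, Kcnj3 was 3.19-fold higher in PD1/PEM than isotype (2.90 to 3.52), while Chrm2 was 1.55-fold (1.48 to 1.63) and Rgs6 1.47-fold higher (1.37 to 1.58). In PDL1/ATZ against isotype the ratios were 5.32 for Kcnj3 (4.57 to 6.18), 2.66 for Chrm2 and 3.23 for Rgs6. Kcnj3 thus changed in its ratio to the receptor gene: cluster 7 held 20.6 Kcnj3 UMIs per 100 Chrm2 UMIs in isotype (18.7 to 22.6), 42.3 in PD1/PEM (40.2 to 44.6) and 41.1 in PDL1/ATZ (35.4 to 47.5). Rgs6 was nearer to a fixed ratio, with 45.1, 42.8 and 54.7 UMIs per 100 of Chrm2. Kcnj5, at 28.7, 37.9 and 74.2 CPM from 41, 67 and 10 UMIs, had a PD1/PEM ratio of 1.32 with an interval that included no difference (0.882 to 2.0). Its PDL1/ATZ ratio was 2.59 (1.15 to 5.25). Against the other cells of each library, Kcnj5 in cluster 7 was 1.43-fold (1.01 to 1.99), 2.04-fold (1.54 to 2.69) and 6.59-fold (3.10 to 12.4). Gnai2 was measured in this cluster at 208, 210 and 185 CPM, lower than in the other cells of each library.

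**Figure D3:**
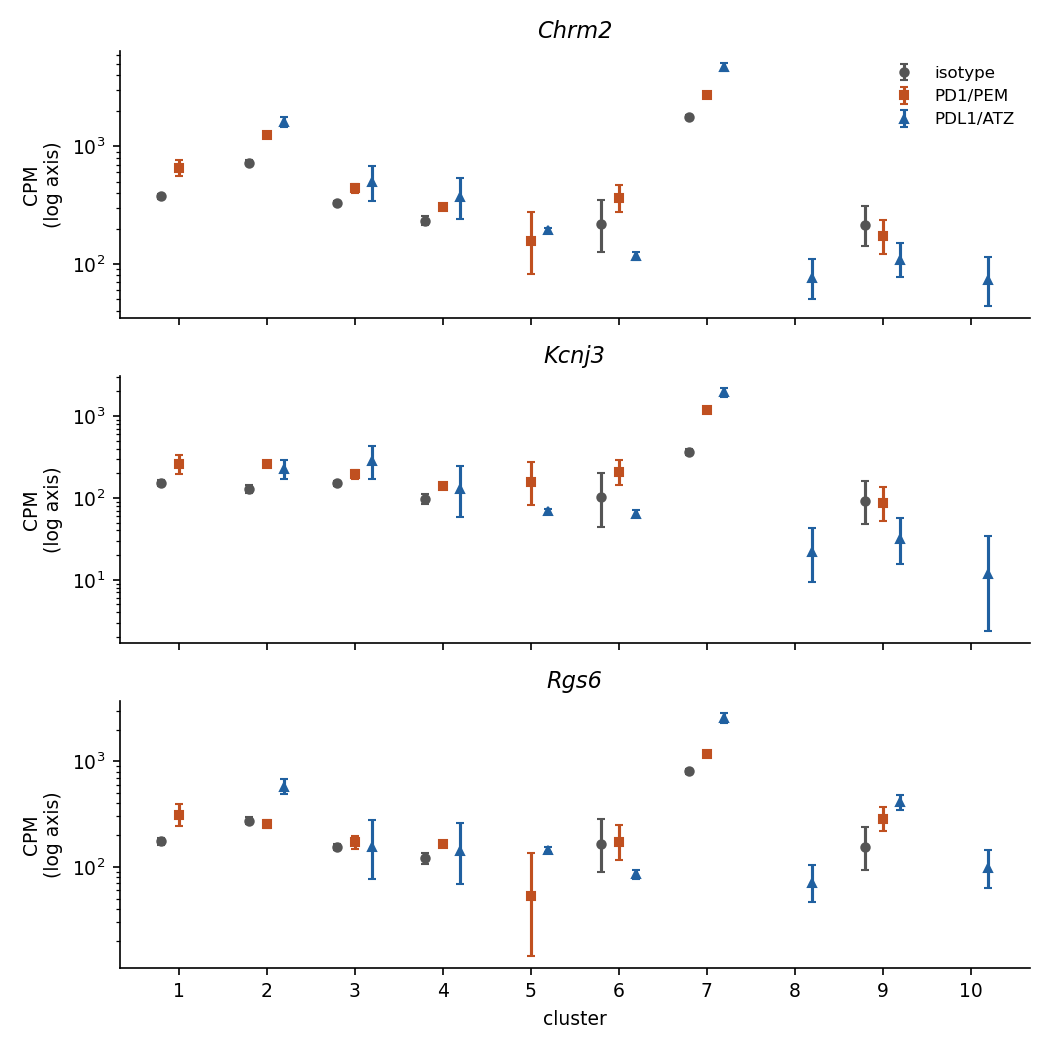
CPM (log axis) of Chrm2, Kcnj3 and Rgs6 in the 10 clusters, by library, where a cluster held at least 40 cells of the library; bars are exact Poisson 95% intervals. All 3 genes were highest in cluster 7 in each library, and isotype was the lowest of the libraries there.

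The contrast was also seen in the number of UMIs per cell at equal depth. After thinning to 700 UMIs, 18.9% of the isotype cells of cluster 7 held a Kcnj3 UMI, against 46.1% (41.7 to 50.6) of the PD1/PEM cells and 56.2% (41.2 to 70.5) of the PDL1/ATZ cells. Cells with 3 or more Kcnj3 UMIs were 1 of 544, 44 of 499 and 11 of 48. Outside cluster 7 they were 2 of 8483, 6 of 5756 and 4 of 11138. As deposited, 22 isotype, 162 PD1/PEM and 24 PDL1/ATZ cells held 5 or more Kcnj3 UMIs, and 90.9%, 90.1% and 95.8% of them lay in cluster 7. For Chrm2 the corresponding cells were less gathered, with 64.0%, 56.2% and 38.1% in cluster 7 and 30.1%, 37.7% and 32.0% in cluster 2.

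**Figure D4:**
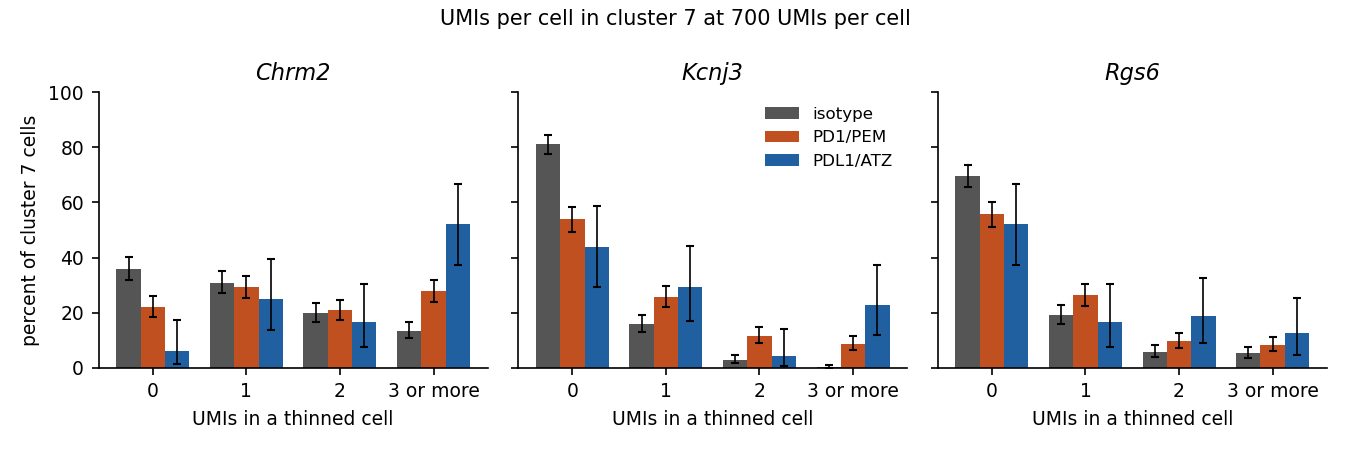
Percent of cluster 7 cells with 0, 1, 2 or 3 or more UMIs of Chrm2, Kcnj3 and Rgs6 after each cell was thinned to 700 UMIs, by library (544 isotype, 499 PD1/PEM and 48 PDL1/ATZ cells); bars are exact Clopper-Pearson 95% intervals. For Kcnj3, 81.1% of the isotype cells held none, against 53.9% and 43.8% of the other 2 libraries.

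Outside cluster 7, Kcnj3 was 1.22-fold higher in PD1/PEM than isotype (1.14 to 1.29), Chrm2 1.26-fold (1.21 to 1.30) and Rgs6 1.06-fold (1.0 to 1.12). No member was called there, where 5.03% of all genes tested were called higher and 3.98% lower. With cluster 2 left out as well, the ratios were 1.06 for Kcnj3 (0.987 to 1.13), 1.02 for Chrm2 (0.972 to 1.06) and 1.10 for Rgs6. These alternatives were chosen after the clusters had been seen. Cluster 2, led by Adra1a, Myh7b and Hs3st5 among named genes, met 2 of 5 ventricular markers (Irx4 and Fhl2) and Ryr2 and stayed unnamed. It was rich in the receptor gene, with Chrm2 at 727, 1256 and 1598 CPM in isotype, PD1/PEM and PDL1/ATZ, but less so in the channel gene, with Kcnj3 at 128, 259 and 225. Against the isotype cells of cluster 2, Chrm2 was 1.73-fold higher in PD1/PEM (1.63 to 1.83), Kcnj3 2.03-fold (1.77 to 2.33), and Rgs6 0.931 of it (0.833 to 1.04). In the PD1/PEM cells of cluster 2, Rgs6 thus did not follow the receptor and the channel gene. In the PDL1/ATZ cells of cluster 2 it did, with ratios to isotype of 2.10 for Rgs6 (1.75 to 2.51), 2.20 for Chrm2 (1.97 to 2.45) and 1.76 for Kcnj3 (1.31 to 2.34).

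In PDL1/ATZ, Kcnj3 outside cluster 7 was 0.496 of its isotype level (0.460 to 0.535) and Chrm2 0.479 (0.457 to 0.501). Kcnj5, at 0.561, and Rgs6, at 0.778, were also lower there, while Gnai2 (1.15), Rgs4 (1.32) and Gnb5 (1.17) were not. Clusters 5 and 6 held 42.6% and 51.4% of the PDL1/ATZ cells, and 0.252% and 1.06% of the isotype cells, whereas cluster 3 held 54.3% of the isotype cells and cluster 4 held 58.8% of the PD1/PEM cells. Chrm2 was measured at 194 and 117 CPM in the PDL1/ATZ cells of clusters 5 and 6, at 329 in the isotype cells of cluster 3 and at 308 in the PD1/PEM cells of cluster 4. Kcnj3 was measured at 68.3 and 64.3, at 150 and at 138 in the same sets. Clusters 3 to 6, which held most cells of the libraries, met at most 1 marker of any cell type and stayed unnamed.

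Free RNA can place UMIs in cells that do not express a gene, so the members were also read in cells of other kinds. Cluster 8 was macrophage-like with 12 of 12 markers and held 172 PDL1/ATZ cells of median depth 1984 UMIs. In it 3.0% of the thinned cells held a Chrm2 UMI (0.967 to 6.77), 1.8% a Kcnj3 UMI (0.368 to 5.10) and 4.1% an Rgs6 UMI, against 10.4%, 5.05% and 7.70% over all PDL1/ATZ cells of median depth 1010. Cluster 9 was smooth muscle-like, with 6 of 6 markers and also 3 of 8 pericyte markers, and was present in all libraries with 51, 65 and 152 cells of median depth 2442, 3494 and 2245. Kcnj3 was found in 10.0% (3.33 to 21.8), 4.6% (0.962 to 12.9) and 2.0% (0.417 to 5.77) of its thinned cells. In isotype, 10.3% of the cells of cluster 3, 7.5% of those of cluster 2 and 18.9% of those of cluster 7 held a Kcnj3 UMI, all within the wide interval for the 50 thinned smooth muscle-like cells. By level, isotype Kcnj3 was at 91.9 CPM (47.5 to 160) in the smooth muscle-like cells. The 150 and 128 CPM of clusters 3 and 2 lay within that interval, while the 365 CPM of cluster 7 (335 to 398) lay above it. The interval rests on 12 UMIs, so it cannot tell whether the levels of clusters 3 and 2 are background. The isotype level under the cluster 2 ratio of 2.03 has the same limit. In PD1/PEM, Kcnj3 was at 259 CPM in cluster 2 (239 to 281) and 86.1 in the smooth muscle-like cells (51.8 to 134). In PDL1/ATZ it was at 225 (171 to 291) and 31.5 (15.7 to 56.4). Chrm2 was found in 8.0%, 7.7% and 6.7% of the smooth muscle-like cells. The isotype shares of Chrm2, 20.6% in cluster 3 and 34.9% in cluster 2, lay above the upper bound of 19.2% for the smooth muscle-like isotype cells.

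In the smooth muscle-like cells, Rgs4 was measured at 38.3, 113 and 129 CPM in isotype, PD1/PEM and PDL1/ATZ, from 5, 25 and 45 UMIs, which in PD1/PEM was 2.93-fold (1.88 to 4.37) and in PDL1/ATZ 2.96-fold (2.14 to 4.01) above the other cells of the library. Rgs6 was measured at 153, 285 and 410, and was 2.72-fold above the other cells in PDL1/ATZ (2.28 to 3.22). In isotype neither gene stood above the other cells, with ratios of 1.12 for Rgs4 (0.362 to 2.63) and 0.672 for Rgs6 (0.410 to 1.04), nor did Rgs6 in PD1/PEM (0.942). In PDL1/ATZ these cells held 376 Rgs6 UMIs per 100 Chrm2 UMIs (262 to 553), against 54.7 in cluster 7.

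Atrial markers differed in the direction opposite to Kcnj3 in PD1/PEM. Of the 10 atrial markers, 8 were called lower and none higher in PD1/PEM against isotype, and the list summed to 6400 CPM in isotype, 2709 in PD1/PEM and 4133 in PDL1/ATZ, with no marker at 0. Nppa, which encodes atrial natriuretic peptide, was 3.20-fold lower in PD1/PEM (3.15 to 3.26) and Bmp10, an atrial growth factor, 9.35-fold lower (7.76 to 11.4). Within cluster 7, Nppa was 2.70-fold lower (2.57 to 2.84), while Sbk2 and Mybphl had ratios of 1.17 (0.808 to 1.69) and 1.10 (0.905 to 1.35). The cardiomyocyte markers had 2 of 8 called lower in PD1/PEM and 7 of 8 in PDL1/ATZ. Erythroid markers had 4 of 5 called higher in PD1/PEM and summed to 3951, 7175 and 8329 CPM. The part of these markers, of depth per cell and of the mitochondrial share in the differences of the members was not tested.

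Cells were also selected by 6 atrial markers (Bmp10, Dkk3, Sbk2, Sbk3, Mybphl and Stard10). These markers were widespread: they summed to 427, 256 and 181 CPM over all cells, and to 543, 437 and 401 in cluster 7. Cells with none of them were 51.1%, 59.9% and 80.2% of the isotype, PD1/PEM and PDL1/ATZ libraries. The selected cells may therefore be different mixtures in each library, which was not tested. Cells with 3 or more of them numbered 272, 114 and 12. In these cells Kcnj3 was measured at 213 CPM in isotype (181 to 249), 1009 in PD1/PEM (916 to 1110) and 2301 in PDL1/ATZ (1794 to 2907), a 4.74-fold ratio of PD1/PEM over isotype (3.94 to 5.72). Chrm2 was measured at 832, 1931 and 2400 in them. A selection by 2 or more markers gave 1400, 586 and 241 cells and a PD1/PEM ratio of 3.29 for Kcnj3 (2.98 to 3.64), and the same selection without Bmp10, itself lower in PD1/PEM, gave 3.31 (2.97 to 3.71). For PDL1/ATZ against isotype, the selection by 2 or more gave 1.57 for Kcnj3 (1.28 to 1.92). It gave 0.643 for Chrm2 (0.548 to 0.750) and 0.923 for Rgs6 (0.748 to 1.13). Chrm2 was thus above isotype in the 12 PDL1/ATZ cells but below it in the 241. Cells with none of the 6 markers had a Kcnj3 ratio of 1.37 (1.26 to 1.48).

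Joint detection, which was part of the choice of the genes, was counted in cells thinned to 700 UMIs and is described beside the product of the shares of the genes. Chrm2 and Kcnj3 were found together in 275 isotype cells (product 223), 368 PD1/PEM cells (product 249) and 137 PDL1/ATZ cells (product 58.5), which is 1.23, 1.48 and 2.34 times the product. Receptor and regulator, Chrm2 and Rgs6, were found together 1.23, 1.47 and 1.80 times as often as the product. Channel gene and regulator, Kcnj3 and Rgs6, gave 1.27, 1.69 and 1.52. These pairs do not stand for the whole set. Of all 21 pairs of members, 8, 9 and 13 lay above the product in isotype, PD1/PEM and PDL1/ATZ. The interval lay above the product for 3, 4 and 3 pairs and below it for 1, 2 and 0. The lowest ratios were 0.684, 0.778 and 0.503. The channel subunits, Kcnj3 and Kcnj5, were found together in 12 isotype cells (product 12.2) and 19 PD1/PEM cells (product 10.2), too few to describe further.

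Receptor, channel gene and regulator were found together in 57 isotype, 120 PD1/PEM and 34 PDL1/ATZ cells, where the products were 25.5, 34.1 and 4.51. Of these cells, 25, 89 and 14 lay in cluster 7. Within cluster 7 the counts were 25 against a product of 20.04 in isotype and 89 against 79.4 in PD1/PEM, and Chrm2 and Kcnj3 were at 1.17 and 1.07 times the product. Outside clusters 2 and 7 that pair was at 1.10 in isotype, 1.04 in PD1/PEM and 2.0 in PDL1/ATZ. No thinned cell held more than 4 of the 7 genes, and 14, 28 and 10 cells held 4.

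**Figure D5:**
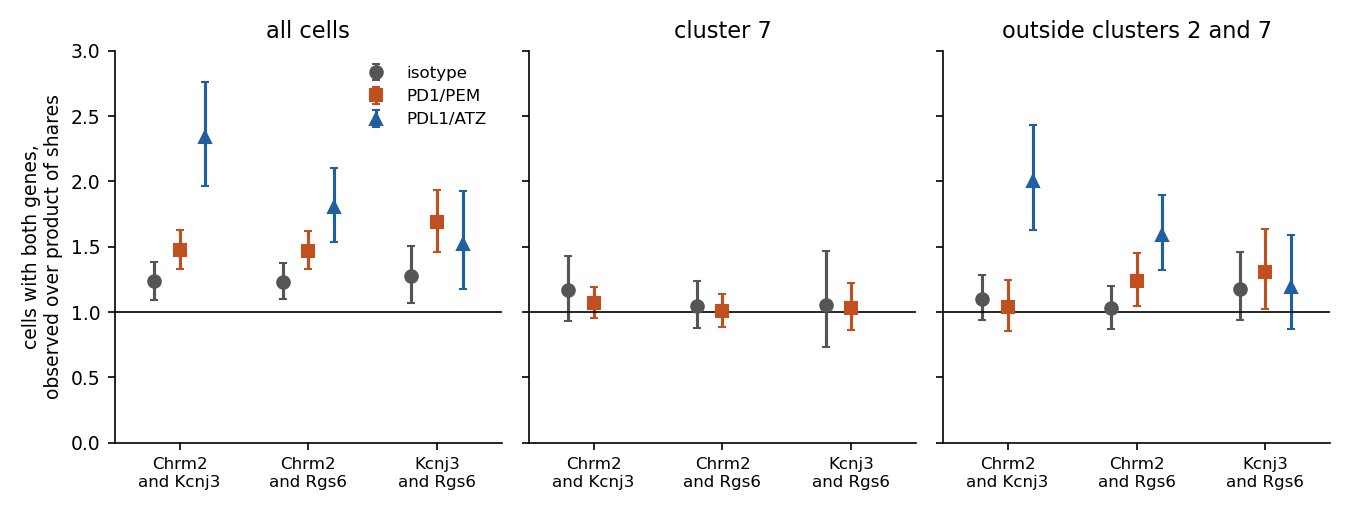
Cells with both genes of a pair, as the observed number over the product of the shares, in all cells, in cluster 7 and outside clusters 2 and 7, after thinning to 700 UMIs; bars are 95% counting intervals, and PDL1/ATZ is not shown for cluster 7, where it had 48 cells. Over all cells Chrm2 with Kcnj3 lay at 1.23, 1.48 and 2.34, and in cluster 7 at 1.17 and 1.07.

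The wider pathway was read from a list of 63 genes, of which 60 are in the files. In PD1/PEM against isotype 53 could be tested, and 3 were called higher and 3 lower, near the 5% and 3.65% of all genes, with a median log2 ratio of 0.14. Higher were Rgs2 (1.59-fold, 1.39 to 1.81) and Rgs19 (1.82-fold, 1.18 to 2.84), which encode further RGS proteins, and Gnaz (1.84-fold, 1.16 to 2.95), which encodes a Gi-class alpha subunit. Lower were Gpsm1, which encodes a protein that binds Gi alpha subunits (1.60-fold, 1.46 to 1.76), the beta subunit gene Gnb3 (2.05-fold, 1.22 to 3.55) and the phosphodiesterase gene Pde2a (1.72-fold, 1.14 to 2.65). Chrm3, the other muscarinic receptor gene with many UMIs, was at 54.8, 73.6 and 199 CPM.

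In PDL1/ATZ against isotype 54 of these genes could be tested, and 25 were called higher and 5 lower, with a median log2 ratio of 0.56, close to the 0.59 of all genes. Of all genes 49.5% were called higher and 6.19% lower, a balance that median-of-ratios scaling changed as given above; the list was not recounted under that scaling. The called genes whose intervals lay farthest from no difference were Pde2a (26.5-fold higher, 20.8 to 34.1), the gamma subunit gene Gng10 (10.9-fold, 7.43 to 16.6), Chrm3 (3.63-fold, 3.37 to 3.91), the calcium channel gene Cacna1c (3.37-fold lower, 3.29 to 3.44), Rgs3 (2.42-fold higher), Gng11 (2.23-fold higher), Rgs17 (2.55-fold higher) and Rgs10 (2.34-fold higher). Behind the highest ratios lay few isotype UMIs, 70 for Pde2a and 29 for Gng10, against 1683 and 287 in PDL1/ATZ, and a difference of annotation between these libraries was not tested for them. The adenylyl cyclase genes of heart muscle, Adcy5 and Adcy6, were called lower, at 1.61-fold and 1.75-fold. Chrm3 and Chrm2 thus differed in opposite directions in PDL1/ATZ.

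Likeness was measured as Pearson's r of log2(CPM + 1), centred within libraries, over 16 points of at least 100 cells, each 1 cluster in 1 library, among 4051 genes. The points of a library share its depth and free RNA, so r is a description. For Kcnj3 the 5 most alike were Arhgap21 (0.92), Ppp2r3a (0.91), Chrm2 (0.91), Myoz2 (0.91) and Smpx (0.90). For Chrm2 they were the ryanodine receptor gene Ryr2 (0.98), Palld (0.96), the gene models Gm13481 and Gm31251 (both 0.96) and Ano4 (0.96). Over all cells, Chrm2 and Ano4 had the order of the channel gene among the libraries, with PD1/PEM ratios of 1.497 and 1.36. Ryr2 and Smpx did not, with PD1/PEM ratios of 0.764 and 0.681, where Kcnj3 had 1.83. Nor did Arhgap21, the gene most like Kcnj3, with ratios to isotype of 1.18 in PD1/PEM and 1.08 in PDL1/ATZ. Myoz2 (0.956), Palld (0.867), Gm13481 (0.941) and Gm31251 (0.842) were below isotype in PD1/PEM. Ppp2r3a was nearly equal in isotype and PD1/PEM, with a ratio of 1.0. Rgs6 correlated with Chrm2 at 0.84 and with Kcnj3 at 0.78, while Gnai2 was at -0.93 and -0.75 and Rgs4 at -0.71 and -0.60.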

How the data were processed

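Counts were used as deposited: whole UMI numbers for each gene in each cell, 1 matrix per library. Per the submitters' processing notes Cell Ranger, Seurat and build mm10 were used; versions, the annotation and any cell filter are not stated in these sources. Libraries were captured with 10x Genomics 3′ chemistry, per the labels' protocols. The members and lists were chosen with earlier results of these data known.

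UMIs were summed over cells and scaled to CPM. Poisson intervals (sums), Clopper-Pearson intervals (shares) and conditional binomial intervals (ratios) are exact, at 95%, and cover counting error only; log2 ratios used a pseudocount of 0.5. The interval of a joint ratio treats the product of the shares as fixed. The ratio step was tested on simulated data. Cells were thinned to 700 UMIs without replacement with seed 1. Clusters came from 2000 variable genes, 30 principal components, 15 neighbours and the Leiden algorithm at resolution 1 (scanpy 1.11.5), without batch correction; a name needed 3 markers. Likely doublets (724, 326 and 1076 cells, the top scores against simulated doublets at 0.8% per 1000 cells) were kept, and were left out as an alternative.

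All members were named; of the pathway list, up to 8 called genes per comparison were named by the interval bound nearest no difference, and Adcy5, Adcy6 and Chrm3 in PD1/PEM were added after their values were seen. For likeness the 5 genes of highest r for Kcnj3 and for Chrm2 were named. Alternatives changed the cells, scaling, thinning, thresholds and clustering.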

Additional observations from a re-analysis of the deposited data

Results flagged for a closer look

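For 2 of the genes, the difference between PDL1/ATZ and isotype had opposite signs in different clusters, with a difference of at least 1.5-fold, at least 50 UMIs and an interval that excluded no difference on each side. Kcnj3 also had opposite signs, but its ratio in cluster 9 (0.343, 0.137 to 0.849) rested on 23 UMIs, under that minimum. The difference between the clusters was itself not tested. For Chrm2 the log2 ratio of PDL1/ATZ over isotype was 1.41 in cluster 7, 1.14 in cluster 2, 0.69 in cluster 4 and 0.61 in cluster 3, against -0.94 in cluster 6 and -0.98 in the smooth muscle-like cluster 9. For Rgs6 it was 1.69 in cluster 7, 1.07 in cluster 2 and 1.39 in cluster 9, against -1.02 in cluster 6. The PDL1/ATZ cells behind these values numbered 48 in cluster 7, 101 in cluster 2, 47 in cluster 4 and 72 in cluster 3, and the isotype cells of cluster 6 numbered 101. Cluster 6 held 17 isotype UMIs of Chrm2 (ratio 0.332 to 0.927) and 13 of Rgs6 (0.296 to 0.968). PDL1/ATZ held 26 Chrm2 UMIs in cluster 4 (1.02 to 2.34) and 35 in cluster 3 (1.04 to 2.09). These ratios are in CPM. Median-of-ratios scaling moved the log2 ratio of Gnai2 over all cells from 0.23 to -0.35. Whether the signs in clusters 3 and 4 depend on scaling was not tested.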

How the results depend on the processing

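No paired analysis was possible because each group is 1 library. For PD1/PEM against isotype, 1 member was called. Among cells with at most 25% mitochondrial UMIs or without likely doublets 2 were called, when Chrm2 was added (log2 ratios of 0.73 and 0.60). Outside cluster 7, outside clusters 2 and 7, or with a 2-fold limit 0 were called. Over all genes, 5.43% were called higher and 4.37% lower at most 25% mitochondrial, and 5.48% and 3.61% without likely doublets. These shares were 5.03% and 3.98% outside cluster 7, and 5.63% and 4.87% outside clusters 2 and 7. The log2 ratio of Kcnj3, 0.87, was 1.24 at most 25% mitochondrial, 0.68 in thinned cells, 0.69 with cells weighted equally, 0.28 outside cluster 7 and 0.080 outside clusters 2 and 7. The 1276 genes called were 774 with a minimum of 200 UMIs and 194 with a 2-fold limit. For PDL1/ATZ against isotype, 3 members became 1 with a 2-fold limit, and the 9027 genes called became 5809 with a minimum of 200 UMIs and 4973 with a 2-fold limit. There the log2 ratio of Kcnj3, -0.89, was -1.14 at most 25% mitochondrial, -1.21 without mitochondrially encoded genes in the total, -1.47 with median-of-ratios scaling, -1.01 outside cluster 7 and -1.09 outside clusters 2 and 7. Apart from the settings that left out cells or changed the scaling, the cause was not tested. At resolution 0.5, 1069 of the 1096 cells of cluster 7 joined a cluster of 3126 cells. Depth limited Kcnj5 and Gnb5, found in at most 1.34% of thinned cells.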
